A study of Mus musculus with 12 samples.

Results

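MHC class I presentation genes encode the molecules that display fragments of intracellular proteins to CD8+ T cells. The 10 genes described here were chosen by name: H2-K1, H2-D1, B2m, Tap1, Tap2, Tapbp, Psmb8, Psmb9, Psmb10 and Nlrc5. Each had 1 row among the 25230 genes of the deposited table. Messenger RNA selected by its poly(A) tail was sequenced from macrophages grown out of mouse bone marrow with M-CSF, in 12 libraries. There were 3 libraries of each of 4 groups, which were Piezo1 knockout (KO) cells given Candida albicans, KO cells given PBS, wild-type (WT) cells given C. albicans and WT cells given PBS. Piezo1 encodes a mechanically gated ion channel, and C. albicans is a yeast of the skin and gut that can invade tissue as filaments. The series addresses the part of this channel in the macrophage response to the fungus. The labels give no dose or duration of exposure, no mouse strain or age, and no account of how the KO was made. For KO cells given PBS the library titles say DMSO and the treatment label says PBS, and the treatment label was followed. A difference in vehicle would enter every comparison with those libraries. The labels do not say that replicates were separate animals or cultures, so each p-value measures only the spread between these libraries.

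Proteins in the cytosol are cut into peptides by the proteasome, whose catalytic subunits can be exchanged for the inducible set Psmb8, Psmb9 and Psmb10, giving the immunoproteasome. The Tap1 and Tap2 proteins pump the peptides into the endoplasmic reticulum, where tapasin, encoded by Tapbp, holds the pump to an empty class I heavy chain. The heavy chains H2-K and H2-D, encoded by H2-K1 and H2-D1, reach the cell surface with beta-2 microglobulin, the light chain encoded by B2m, and a bound peptide. Nlrc5 is a transactivator that acts at the promoters of these genes, and interferon gamma is a known inducer of the whole set. Macrophages carry class I molecules constantly, as nearly all nucleated cells do.

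The promoters of the chains are shown because H2-D1 differed between genotypes and H2-K1 did not pass, and that of Tap1 because it also serves Psmb9, and both genes fell in WT cells. Sequences are from RefSeq on GRCm38.p6, where 8 of the 10 genes had an entry, each giving 250 bases up to the base before the transcript start, 5′ to 3′ on the strand of the gene. H2-K1 has a pair of starts, and the downstream one is printed. The windows are chr17:34000334-34000583 on the minus strand for H2-K1, chr17:35262844-35263093 on the plus strand for H2-D1, chr2:122147437-122147686 on the plus strand for B2m, and chr17:34187306-34187555 on the plus strand for Tap1. Capitals mark matches, on either strand, to GAAANNGAA (interferon-stimulated response element), TTCNNNGAA (gamma-activated site), GGGNNTTNC (kappa B site), TGACG (the core of a cyclic AMP response element) and CCAAT (the CCAAT box).
H2-K1: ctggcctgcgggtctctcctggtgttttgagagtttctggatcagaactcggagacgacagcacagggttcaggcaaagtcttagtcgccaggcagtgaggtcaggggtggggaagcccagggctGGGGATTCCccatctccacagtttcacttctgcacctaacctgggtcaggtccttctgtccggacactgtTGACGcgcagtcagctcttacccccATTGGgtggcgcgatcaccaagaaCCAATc
H2-D1: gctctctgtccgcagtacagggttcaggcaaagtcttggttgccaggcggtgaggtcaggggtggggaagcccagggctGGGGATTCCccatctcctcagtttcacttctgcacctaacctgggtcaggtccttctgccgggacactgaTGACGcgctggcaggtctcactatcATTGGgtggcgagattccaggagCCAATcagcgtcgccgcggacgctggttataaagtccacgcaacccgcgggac
B2m: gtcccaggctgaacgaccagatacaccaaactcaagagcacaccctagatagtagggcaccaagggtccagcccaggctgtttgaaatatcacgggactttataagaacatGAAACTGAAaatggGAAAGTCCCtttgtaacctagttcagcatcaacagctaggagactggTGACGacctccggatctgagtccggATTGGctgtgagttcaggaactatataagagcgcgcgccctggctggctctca
Tap1: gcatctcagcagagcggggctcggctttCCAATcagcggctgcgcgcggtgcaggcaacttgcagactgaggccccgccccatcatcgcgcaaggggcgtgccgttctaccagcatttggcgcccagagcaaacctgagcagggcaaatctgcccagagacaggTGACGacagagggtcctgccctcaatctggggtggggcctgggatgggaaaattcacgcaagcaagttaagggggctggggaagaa
Aligned without gaps at the kappa B match, the H2-K1 and H2-D1 windows shared 169 of 204 bases (82.8%). In H2-K1, H2-D1 and B2m a TGACG was followed 25 bases on by the reverse of a CCAAT box. This spacing was noticed after the sequences were read, and 18 of 32851 promoters of the same length held it (0.0548%). They include those of H2-K1, H2-D1 and B2m, from which it was taken, so the share is no independent support. H2-M3, another class I heavy chain, was also among them, and some genes were counted with more than 1 start. A kappa B match was present in 3 of the 8 genes with an entry, against 13% of all promoters, a TGACG in 5 (17.8%), a CCAAT box in 6 (33.8%), an interferon-stimulated response element in 1 (7.13%) and a gamma-activated site in 1 (7.02%). No matches overlapped. The Tap1 window covers the stretch it shares with Psmb9, which starts 225 bases away on the other strand. The TGACG and the CCAAT box of Tap1 are the same bases as those of Psmb9, so each was counted for both genes. The counts are of genes, while the percentages are of promoters. A match is a run of letters and no measure of binding.

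A library held 16400119 to 25741091 reads in genes. The deposited unit, TPM, is a level scaled by gene length and by the total of the library. It was compared with limma as log2(TPM + 1) over 11283 genes, those that reached 1 TPM in 3 or more libraries. All 10 class I genes passed that filter. An adjusted p under 0.05 counts as a change. WT C. albicans replicate 1 stood apart, since its read counts differed from those of its replicates with chi-square values of 15.4 and 14.5 times their degrees of freedom, where all other pairs of replicates lay between 1.49 and 4.4 times. Piezo1 itself had 64.9 TPM in KO cells with C. albicans against 137 TPM in WT cells with C. albicans, and 65.4 TPM in KO cells with PBS against 135 TPM in WT cells with PBS. All 8 macrophage markers examined reached 1 TPM, and their summed level was 15970 to 16080 TPM in KO cells with C. albicans, 15420 to 15660 in KO cells with PBS, 21930 to 23370 in WT cells with C. albicans and 25730 to 26280 in WT cells with PBS. No dendritic cell marker of 8 reached 1 TPM in 3 libraries, with a sum of 0.225 to 1.40 TPM, and neither did any of the neutrophil, T and NK cell, stromal or erythroid lists. Of 6 B cell markers 2 reached it, Cd79a and Cd22, with a summed level of 10.2 to 18.8 TPM over all libraries, and of 6 mast cell markers 1, Cpa3. These sums are unweighted, so they mostly follow the most abundant genes of a list. The part of these marker levels in the results was not tested.

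The class I chains were among the most abundant transcripts of these cells. B2m (gene 12010, chromosome 2, 122147687 to 122153082) ranked 4th of all genes by mean level, at 16822 TPM over the 12 libraries, H2-K1 (gene 14972, chromosome 17, 33996012 to 34000619) ranked 14th at 5179 TPM and H2-D1 (gene 14964, chromosome 17, 35263094 to 35267497) ranked 54th at 1960 TPM. Together these chains held 2.44% to 2.49% of all TPM in KO cells with C. albicans, 2.50% to 2.59% in KO cells with PBS, 2.20% to 2.31% in WT cells with C. albicans and 2.21% to 2.39% in WT cells with PBS. Every KO library was above every WT library in that share. Of the other genes Psmb8 averaged 420.1 TPM, Tapbp 326, Psmb9 198, Psmb10 187, Tap1 116 and Tap2 84.1 TPM. Nlrc5 was far lower, at 9.97 TPM and rank 7486, with 459 to 953 reads per library, where none of the others had fewer than 1130.

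**Figure D1:**
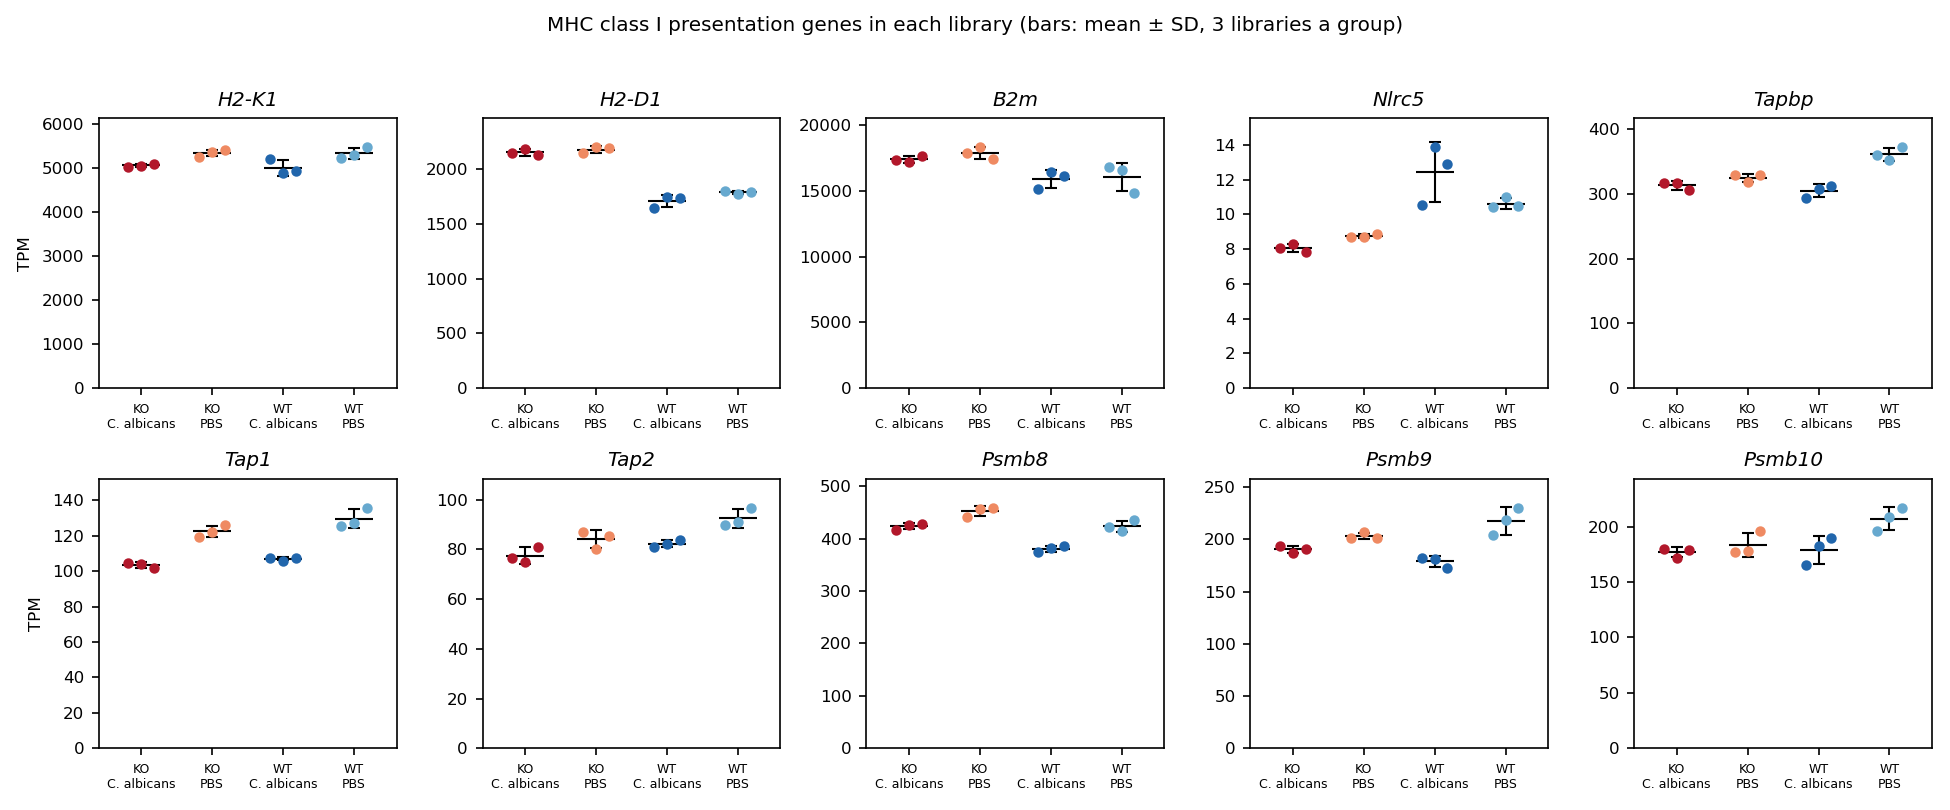
Level of each class I gene in TPM (vertical axes, each from 0) in KO cells with C. albicans, KO cells with PBS, WT cells with C. albicans and WT cells with PBS. Points are the 3 libraries of a group and bars the mean ± SD. H2-D1 lies higher in all 6 KO libraries, Nlrc5 lower, and the transport and proteasome genes lie lower with C. albicans in WT cells.

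In KO macrophages the response to C. albicans passed in 1 class I gene, Tap1, which encodes a chain of the peptide pump and fell to 84.5% of its PBS level. Tap1 (chromosome 17, 34187556 to 34197225) had 105, 104 and 102 TPM in KO cells with C. albicans, against 119, 122 and 126 TPM in KO cells with PBS. The groups did not overlap, and the log2 difference was -0.24 (SE 0.04, adjusted p = 0.00121, limma), past the threshold under all 20 alternative settings run. Since these are bulk libraries, fewer cells of a type and less RNA per cell cannot be told apart. In all, 0 of 10 genes rose and 1 fell, where 3.94% of all tested genes rose and 3.14% fell. The other 9 log2 differences lay between -0.12 (Tap2) and -0.02 (H2-D1), with a median over the 10 genes of -0.09 beside -0.04 for all tested genes. All were below 0 on the TPM scale, while with median-ratio factors those of H2-D1 and B2m were 0.03 and 0.00. H2-K1, Tapbp, Psmb8, Psmb9 and Nlrc5 had no overlap between C. albicans and PBS libraries and missed the threshold, Psmb8 most narrowly at -0.09 (adjusted p = 0.0663). When WT C. albicans replicate 1 was left out, which here changes only the estimated spread, 3 genes fell (H2-K1, Tap1 and Psmb8).

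Among the genes that did not pass in KO cells, Psmb9 had 193, 187 and 191 TPM with C. albicans, against 202, 207 and 201 TPM with PBS. Psmb10 had 180.1, 172 and 179 TPM with C. albicans, against 177, 178 and 196 TPM with PBS. Tap2, the other chain of the pump, had 76.5, 74.8 and 81.2 TPM with C. albicans, against 87.0, 80.1 and 85.6 TPM with PBS. The libraries of Psmb10 and Tap2 overlapped, and those of Psmb9 did not, at a log2 difference of -0.09 (adjusted p = 0.195).

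In WT macrophages C. albicans was accompanied by lower levels of most class I genes on the TPM scale, and the falls were small. The transporter and loading genes Tap1 and Tapbp and the immunoproteasome gene Psmb9 had the largest falls, to 82.2% to 84.4% of the PBS level. The heavy chains H2-K1 and H2-D1 fell to 93.9% and 95.4%. B2m did not pass, at -0.01 (adjusted p = 0.802), but fell by 0.22 with a trend on gene length and GC content removed (adjusted p = 0.00156). In all, 0 of 10 genes rose and 8 fell (H2-K1, H2-D1, Tap1, Tap2, Tapbp, Psmb8, Psmb9 and Psmb10), where 16.1% of all tested genes rose and 28.3% fell. The median log2 difference of the 10 genes was -0.16, beside -0.07 for all tested genes. With median-ratio factors only Tap1, Tapbp and Psmb9 passed below 0, and Nlrc5 passed above 0.

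Tap1 had 107, 106 and 108 TPM in WT cells with C. albicans, against 126, 127 and 136 TPM in WT cells with PBS. Psmb9 (chromosome 17, 34182030 to 34187330) had 182, 182 and 173 TPM with C. albicans, against 204, 218 and 230.5 TPM with PBS. Tapbp (chromosome 17, 33919478 to 33929290) had 294, 308 and 313 TPM with C. albicans, against 359.7, 352 and 372 TPM with PBS. In each of these genes every C. albicans library was below every PBS library. The log2 differences were -0.27 for Tap1 (SE 0.04, adjusted p = 7.14e-05), -0.28 for Psmb9 (SE 0.04, adjusted p = 0.000163) and -0.24 for Tapbp (SE 0.03, adjusted p = 8.25e-05, limma throughout). These calls held under all 20 alternatives. In the GENCODE transcript models exons of Tap1 and Psmb9 share 212 bases on opposite strands, while the RefSeq spans printed here do not overlap. The sources used here do not give the annotation or the strand setting of the counting. Whether reads from those shared bases were told apart is therefore not known. The same holds for Tap2, Tapbp, Psmb8 and Nlrc5, where each overlaps a gene on the other strand in the GENCODE models. Tapbp also shares exon bases with Zbtb22, a protein-coding gene on its own strand, which no strand setting would part. The most it shared with 1 gene was 904 bases, with Gm19412 on the other strand.

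Psmb8 (chromosome 17, 34198195 to 34201454) had 375, 381 and 387 TPM in WT cells with C. albicans, against 422, 414 and 435 TPM in WT cells with PBS. Psmb10 (chromosome 8, 105935728 to 105938392) had 165, 182 and 189.9 TPM with C. albicans, against 196, 208 and 217 TPM with PBS. Tap2 (chromosome 17, 34204479 to 34216321) had 81.0, 82.1 and 83.7 TPM with C. albicans, against 89.7, 91.0 and 96.9 TPM with PBS. The groups did not overlap in any of these genes. Their log2 differences were -0.15 (adjusted p = 0.000851), -0.21 (adjusted p = 0.00916) and -0.17 (adjusted p = 0.00982). With median-ratio factors in place of the TPM scale the values were -0.07, -0.13 and -0.09 and none passed, and H2-K1 and H2-D1, at -0.09 (adjusted p = 0.0147) and -0.07 (adjusted p = 0.0443) on the TPM scale, had -0.01 and 0.01 and did not pass. The fall of H2-K1 held under 12 of the 20 alternatives and that of H2-D1 under 4. In the authors' deposited table for this comparison, from DESeq2, 3 of the 10 genes were lower (Tap1 at -0.20, Tapbp at -0.16 and Psmb9 at -0.20) and 1 was higher (Nlrc5 at 0.31), where 14.1% of 13587 genes were lower and 18.6% higher.

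Nlrc5, the class I transactivator, did not pass in WT cells. It had 10.5, 13.9 and 12.9 TPM in WT cells with C. albicans, against 10.4, 11.0 and 10.5 TPM in WT cells with PBS. Replicate 1 with C. albicans lay inside the PBS range and the other 2 lay above it. The log2 difference was 0.20 (95% interval 0.03 to 0.38, adjusted p = 0.0588, and 0.00142 to 0.249 over the alternatives). It was 0.31 without WT C. albicans replicate 1 (adjusted p = 0.00142), and without that library the count for this comparison became 1 gene higher and 7 lower, H2-D1 no longer being called. In the authors' deposited table Nlrc5 was at 0.31 with an adjusted p of 0.003135.

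The response differed between genotypes in Tapbp, and did not pass for the other class I genes taken singly. Tapbp had 317, 316 and 305 TPM in KO cells with C. albicans, against 328, 318 and 328 TPM in KO cells with PBS, a log2 difference of -0.05 where WT cells had -0.24. The response in KO cells minus that in WT cells was 0.19 (SE 0.05, 95% interval 0.09 to 0.29, adjusted p = 0.0178). It was 0.15 with median-ratio factors (adjusted p = 0.0772) and 0.11 with a trend on gene length and GC content removed (adjusted p = 0.17). In all 1 of 10 genes was higher and 0 lower, where 7.52% of tested genes were higher and 6.33% lower in this comparison. Psmb9 was at 0.19 (adjusted p = 0.052) and Nlrc5 at -0.31 (adjusted p = 0.0911). Both passed without WT C. albicans replicate 1, at 0.20 (adjusted p = 0.0294) and -0.42 (adjusted p = 0.00319). The intervals of the others were narrower than that of Nlrc5, such as -0.07 to 0.10 for H2-K1. The responses and this difference share libraries, so their values are given side by side only.

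**Figure D2:**
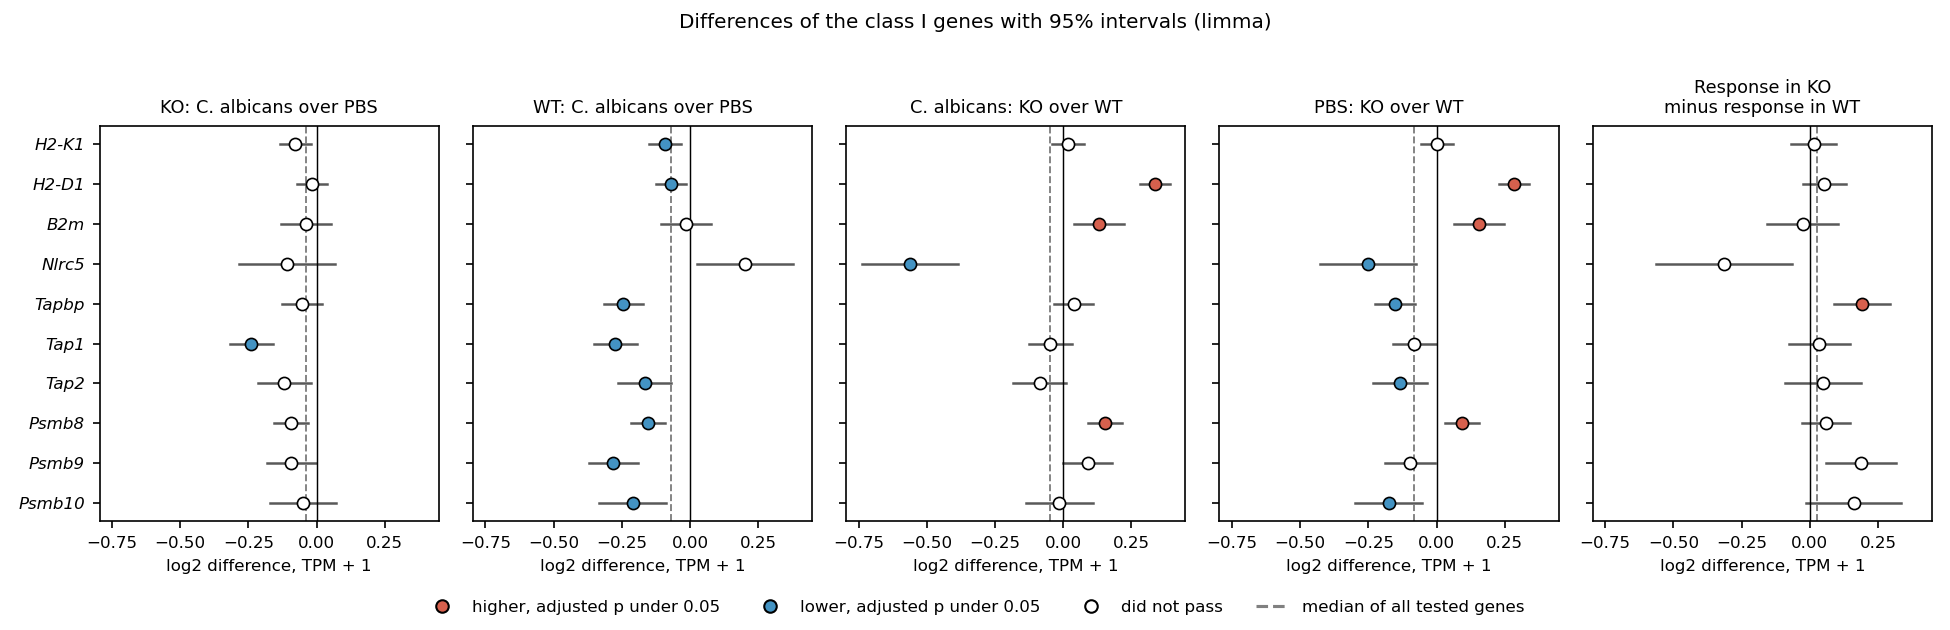
Log2 differences on the TPM + 1 scale (horizontal axes) of the 10 class I genes in 5 comparisons, with 95% intervals from limma. Filled points passed an adjusted p under 0.05, and dashed lines give the median of all tested genes. In KO cells Tap1 passed, in WT cells 8 genes passed below 0, and KO over WT separates H2-D1 on the right from Nlrc5 on the left.

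Between genotypes H2-D1 was higher in KO cells with either treatment, whereas H2-K1, the other classical heavy chain, stood at 101% of the WT level with C. albicans and 100.2% with PBS. H2-D1 had 2149.7, 2188 and 2129.8 TPM in KO cells with C. albicans, against 1646, 1744 and 1736 TPM in WT cells with C. albicans. With PBS it had 2147, 2203 and 2194 TPM in KO cells, against 1807, 1777 and 1792 TPM in WT cells. All 6 KO libraries lay above all 6 WT libraries. The log2 difference was 0.34 with C. albicans (SE 0.03, adjusted p = 1.11e-06), or 126% of the WT level, and 0.28 with PBS (SE 0.03, adjusted p = 1.04e-05), or 122%. Both calls held under all 20 alternatives, at 0.19 to 0.42 and 0.20 to 0.38. The order of the group means was KO with PBS, KO with C. albicans, WT with PBS and WT with C. albicans, and the first pair overlapped.

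H2-K1 had 5029, 5047 and 5089 TPM in KO cells with C. albicans, against 5199.9, 4871 and 4924 TPM in WT cells with C. albicans. With PBS it had 5251, 5361 and 5394 TPM in KO cells, against 5221, 5289 and 5466 TPM in WT cells. The genotypes overlapped with both treatments, with log2 differences of 0.02 (95% interval -0.04 to 0.08, adjusted p = 0.657) and 0.00 (95% interval -0.06 to 0.06, adjusted p = 0.953). Both depended on the processing. With median-ratio factors H2-K1 was higher in KO cells, by 0.08 with C. albicans (adjusted p = 0.0324) and 0.10 with PBS (adjusted p = 0.0132). With upper-quartile factors these were 0.10 (adjusted p = 0.00642) and 0.08 (adjusted p = 0.0325). With the length and GC trend removed the value with C. albicans was -0.09 (adjusted p = 0.0271). Within each library the ratio of H2-D1 to H2-K1 transcripts was 0.427, 0.433 and 0.419 in KO cells with C. albicans, against 0.316, 0.358 and 0.353 in WT cells with C. albicans. It was 0.409, 0.411 and 0.407 in KO cells with PBS, against 0.346, 0.336 and 0.328 in WT cells with PBS. This ratio does not depend on how libraries are scaled. It was formed after the values had been seen and was not tested. Reads from part of both transcripts may not be told apart from those of relatives. At a chosen length of 50 bases, 14.3% of the stretches of the H2-D1 transcript and 8.79% of those of H2-K1 recur in other genes. The gene sharing most was H2-Q1 for H2-D1 and H2-D1 for H2-K1. The length of the reads did not enter this check.

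B2m, the shared light chain, was higher in KO cells by a smaller step. It had 17373, 17166 and 17655 TPM in KO cells with C. albicans, against 15174, 16452 and 16105 TPM in WT cells with C. albicans, a log2 difference of 0.13 (adjusted p = 0.027). With PBS it had 17921, 18318 and 17442 TPM in KO cells, against 16827, 16562 and 14869 TPM in WT cells, a difference of 0.16 (adjusted p = 0.0138). The groups did not overlap with either treatment. The call with C. albicans held under 14 of 20 alternatives and that with PBS under 17. Without WT C. albicans replicate 1 the value with C. albicans was 0.10 (adjusted p = 0.0836), and with the length and GC trend removed the value with PBS was 0.00 (adjusted p = 0.981). The ratio of H2-K1 plus H2-D1 to B2m transcripts averaged 0.415 ± 0.006 in KO cells with C. albicans, 0.42 ± 0.013 in KO cells with PBS, 0.422 ± 0.026 in WT cells with C. albicans and 0.444 ± 0.038 in WT cells with PBS (SD, n = 3 each). These ranges overlapped, and the difference between the genotypes in its response was 0.05 on the log2 scale (exact permutation test of genotype within treatment, two-sided, p = 0.61, adjusted p = 0.61 over 4 ratios). With the length and GC trend removed it was -0.14 (exact permutation test, adjusted p = 0.04).

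Nlrc5 (gene 434341, chromosome 8, 94434335 to 94527272) was lower in KO cells. With C. albicans it had 8.04, 8.29 and 7.81 TPM in KO cells, against 10.5, 13.9 and 12.9 TPM in WT cells. With PBS it had 8.72, 8.69 and 8.89 TPM in KO cells, against 10.4, 11.0 and 10.5 TPM in WT cells. All 6 KO libraries lay below all 6 WT libraries. The log2 difference with C. albicans was -0.56 (SE 0.08, adjusted p = 0.000147), or 64.7% of the WT level, and held under all 20 alternatives, at -0.67 to -0.45. With PBS it was -0.25 (SE 0.08, adjusted p = 0.0325), or 82.6%, and it held under 10 of 20 alternatives, at -0.27 to -0.10. The value with C. albicans was -0.67 without WT C. albicans replicate 1.

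Of the immunoproteasome and loading genes, on the TPM scale Psmb8 passed as higher in KO cells with both treatments. Others passed as lower with PBS only, and these calls depended on the processing. Psmb8, an immunoproteasome subunit, was higher in KO cells, at 417, 426 and 428 TPM with C. albicans, against 375, 381 and 387 TPM in WT cells with C. albicans. With PBS it had 442, 456 and 459 TPM in KO cells, against 422, 414 and 435 TPM in WT cells. The KO libraries lay above the WT libraries with both treatments, by a log2 difference of 0.15 (adjusted p = 0.000943) and 0.09 (adjusted p = 0.0236). With the length and GC trend removed these were 0.02 (adjusted p = 0.671) and -0.02 (adjusted p = 0.634). With PBS, Tapbp (-0.15, adjusted p = 0.00379), Psmb10 (-0.17, adjusted p = 0.0316) and Tap2 (-0.13, adjusted p = 0.0381) were lower in KO cells, and none of these or Nlrc5 passed with median-ratio or upper-quartile factors. With C. albicans their values were 0.04, -0.01 and -0.09 and did not pass. Under other settings they did, Tapbp at 0.12 with upper-quartile factors (adjusted p = 0.0182), and Psmb10 at -0.19 (adjusted p = 0.0214) and Tap2 at -0.21 (adjusted p = 0.0043) with the length and GC trend removed. Psmb9 was at 0.09 with C. albicans (adjusted p = 0.106) and -0.10 with PBS (adjusted p = 0.0928). It passed with C. albicans at 0.15 with median-ratio factors (adjusted p = 0.0143) and 0.17 with upper-quartile factors (adjusted p = 0.00566), and with PBS at -0.23 with the length and GC trend removed (adjusted p = 0.002). In all, with C. albicans 3 of 10 genes were higher in KO cells (H2-D1, B2m and Psmb8) and 1 lower (Nlrc5), where 12.4% of tested genes were higher and 27.5% lower. With PBS the same 3 were higher and 4 lower (Tap2, Tapbp, Psmb10 and Nlrc5), where 6.14% were higher and 26.1% lower. With median-ratio factors 5 of the 10 were higher and 1 lower in KO cells with C. albicans, where 2158 of all 11283 tested genes were higher and 2463 lower. With PBS 4 of the 10 were then higher and 0 lower, where 1577 of all genes were higher and 1608 lower. After removal of the length and GC trend 1 was higher and 5 lower with C. albicans, where 853 of 11212 genes were higher and 2355 lower, and 1 was higher and 4 lower with PBS, where 348 were higher and 2111 lower. On the TPM scale the medians of the 10 genes were 0.03 with C. albicans and -0.09 with PBS, beside -0.05 and -0.08 for all tested genes.

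The ratios of immunoproteasome to constitutive subunit transcripts were lower with C. albicans in WT cells. In KO cells Psmb9 to Psmb6 and Psmb8 to Psmb5 were lower, while the libraries of Psmb10 to Psmb7 overlapped. The genotypes differed in the response of Psmb9 to Psmb6 and of Psmb10 to Psmb7. Psmb9 takes the place of Psmb6 in the assembled particle, Psmb10 that of Psmb7 and Psmb8 that of Psmb5. The Psmb9 to Psmb6 ratio was 0.523, 0.498 and 0.512 in KO cells with C. albicans, against 0.589, 0.589 and 0.573 in KO cells with PBS. It was 0.474, 0.431 and 0.414 in WT cells with C. albicans, against 0.684, 0.686 and 0.67 in WT cells with PBS. The groups did not overlap within either genotype, and the ratio stood at 87.5% of its PBS value in KO cells and 64.5% in WT cells. The difference between these responses was 0.44 on the log2 scale (exact permutation test of genotype within treatment, two-sided, p = 0.005, the smallest that 400 permutations can give, adjusted p = 0.02 over 4 ratios). With each treatment taken alone, 3 libraries against 3 cannot give a p below 0.1, so these comparisons are given as values.

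The Psmb10 to Psmb7 ratio averaged 0.792 ± 0.037 in KO cells with C. albicans and 0.827 ± 0.072 in KO cells with PBS, with overlapping libraries. It averaged 0.701 ± 0.053 in WT cells with C. albicans and 0.976 ± 0.09 in WT cells with PBS (SD, n = 3 each), without overlap. The difference between the responses was 0.42 (exact permutation test, two-sided, p = 0.015, adjusted p = 0.03), and 0.22 with the length and GC trend removed (adjusted p = 0.095). With that trend removed the response of this ratio in KO cells was 0.02 on the log2 scale, where it was -0.06 without the removal. The Psmb8 to Psmb5 ratio averaged 3.83 ± 0.17 in KO cells with C. albicans, 4.26 ± 0.16 in KO cells with PBS, 3.48 ± 0.31 in WT cells with C. albicans and 4.48 ± 0.22 in WT cells with PBS. It was lower with C. albicans in both genotypes without overlap. The difference of its responses, 0.21, did not pass (exact permutation test, p = 0.065, adjusted p = 0.0867), and without WT C. albicans replicate 1 it was 0.28 (adjusted p = 0.03).

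**Figure D3:**
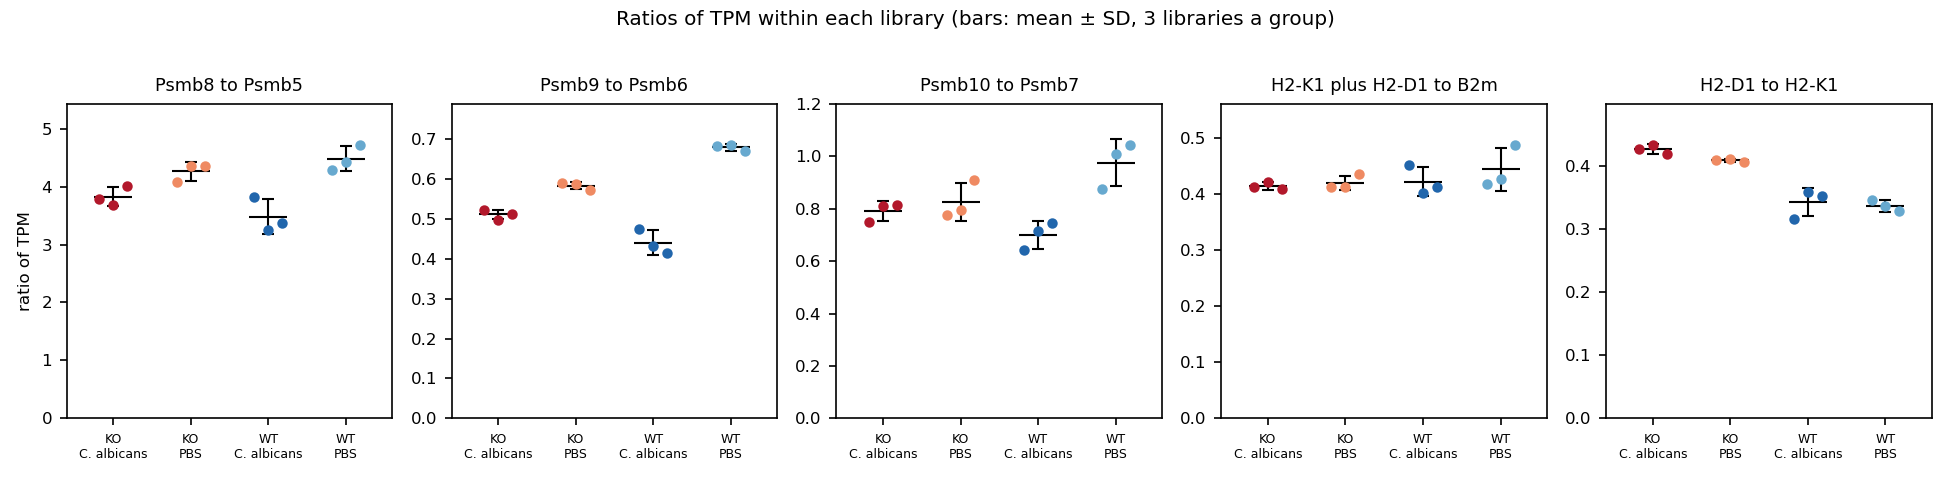
Ratios of TPM within each library (vertical axes, each from 0) for immunoproteasome over constitutive subunits, heavy chains over light chain, and H2-D1 over H2-K1, in KO cells with C. albicans, KO cells with PBS, WT cells with C. albicans and WT cells with PBS. Points are libraries and bars the mean ± SD. Psmb9 to Psmb6 stands at 87.5% of its PBS value in KO cells and 64.5% in WT cells, and H2-D1 to H2-K1 lies above 0.4 in KO libraries and below it in WT libraries.

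Both terms of these ratios moved in WT cells, where the constitutive catalytic subunits rose. In KO cells with C. albicans Psmb6, Psmb7 and Psmb5 were at 0.10, 0.01 and 0.06 on the log2 scale and none passed. In WT cells Psmb6 rose to 408 ± 20.5 TPM with C. albicans, against 320.3 ± 22.7 TPM with PBS (SD, n = 3 each), a log2 difference of 0.35 (adjusted p = 8.25e-05). Psmb7 rose by 0.26 in WT cells (adjusted p = 0.000592), and by 0.07 without passing when the length and GC trend was removed, and Psmb5 rose by 0.21 (adjusted p = 0.0119). The difference between the genotypes in the response passed for Psmb6 (-0.25, adjusted p = 0.0267) and Psmb7 (-0.25, adjusted p = 0.023) and not for Psmb5 (-0.15, adjusted p = 0.273). For Psmb5 it passed without WT C. albicans replicate 1, at -0.23 (adjusted p = 0.00977). Of the 11 other subunits of the proteasome core, 0 passed in KO cells. In WT cells 8 of them rose and 0 fell, including Psma3 at 0.35 and Psma6 at 0.31. In WT cells 5 of the 11 rose after removal of the length and GC trend, where 1499 of 11212 genes rose. Of 9 activators and assembly factors, 0 passed in KO cells, while 4 rose and 1 fell in WT cells. Of all tested genes 3.94% rose and 3.14% fell in KO cells, and 16.1% rose and 28.3% fell in WT cells. Leaving out WT C. albicans replicate 1, 1 of the 11 rose and 1 of the 9 fell in KO cells. In WT cells 3 of the 9 then rose and 0 fell. That fit called 663 of all 11283 genes higher and 824 lower in KO cells, and 1885 higher and 3536 lower in WT cells.

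Other class I and class I-like heavy chains moved in both directions. Of 22 listed genes 12 were tested. With C. albicans 1 rose and 1 fell in KO cells, while 5 rose and 6 fell in WT cells. Of all tested genes 3.94% rose and 3.14% fell in KO cells, and 16.1% rose and 28.3% fell in WT cells. The count in KO cells was 2 higher and 3 lower without WT C. albicans replicate 1. That fit called 663 of all 11283 genes higher and 824 lower. Fcgrt, which encodes the heavy chain of the neonatal Fc receptor, rose by 0.23 on the log2 scale in KO cells (adjusted p = 0.0015) and fell by 0.55 in WT cells (adjusted p = 1.1e-07). H2-Q6, of the Qa family, fell by 0.16 in KO cells (adjusted p = 0.0261) and rose by 0.51 in WT cells (adjusted p = 3.89e-07). In WT cells H2-M2, a nonclassical heavy chain, rose to 21.2 ± 3.31 TPM with C. albicans against 9.02 ± 0.995 TPM with PBS, by 1.14 (adjusted p = 3.78e-05), and Hfe, a regulator of iron uptake, fell by 0.59 (adjusted p = 8.8e-07). The response in KO cells minus that in WT cells was 0.78 for Fcgrt, 0.49 for Hfe, -0.67 for H2-Q6 and -0.85 for H2-M2, and all 4 passed (adjusted p from 2.29e-06 to 0.0138). Between genotypes 5 were higher and 3 lower in KO cells with C. albicans, where 12.4% of tested genes were higher and 27.5% lower. With PBS 2 were higher and 3 lower in KO cells, among them H2-Q6 at 0.43 and H2-T24, of the T region, at -0.37. Of all tested genes 6.14% were higher and 26.1% lower. With median-ratio factors the count with PBS was 5 higher and 2 lower, where 1577 of all 11283 genes were higher and 1608 lower. Genes of the Qa and T regions are close copies of each other, so their reads may have been split or lost.

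Of 15 genes of peptide loading and trimming, 2 rose and 0 fell with C. albicans in KO cells. In WT cells 5 rose and 3 fell, including the chaperone gene Hspa5 at 0.36 and Sec61g, of the Sec61 channel, at 0.52. Of all tested genes 3.94% rose and 3.14% fell in KO cells, and 16.1% rose and 28.3% fell in WT cells. With WT C. albicans replicate 1 left out the count in KO cells was 3 higher and 1 lower. That fit called 663 of all 11283 genes higher and 824 lower. In KO cells with C. albicans 1 was higher and 7 lower than in WT cells, where 12.4% of tested genes were higher and 27.5% lower. Among them were Lnpep, which encodes a peptide-trimming aminopeptidase, at -1.21 and Hspa5 at -0.34. With PBS 2 were higher and 8 lower in KO cells, where 6.14% of tested genes were higher and 26.1% lower. Among them was Tapbpl, which encodes a tapasin relative, at -0.30. With median-ratio factors the counts with PBS were 3 higher and 2 lower, where 1577 of all 11283 genes were higher and 1608 lower.

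Of 17 genes for factors that act at class I promoters, 2 rose and 0 fell with C. albicans in KO cells, with a list median of -0.01. In WT cells 8 rose and 3 fell, with a median of 0.10. Of all tested genes 3.94% rose and 3.14% fell in KO cells, and 16.1% rose and 28.3% fell in WT cells. Irf1, an interferon regulatory factor, rose in KO cells to 84.5 ± 2.06 TPM with C. albicans against 38.0 ± 1.14 TPM with PBS, by 1.13 on the log2 scale. In WT cells it rose to 125 ± 15.8 TPM with C. albicans against 48.1 ± 0.542 TPM with PBS, by 1.35 (SD, n = 3 each). Rel, an NF-kB subunit gene, rose in KO cells to 28.8 TPM with C. albicans against 14.8 TPM with PBS, and in WT cells to 47.1 TPM with C. albicans against 15.9 TPM with PBS. The response of Rel in KO cells minus that in WT cells was -0.59 (adjusted p = 0.0129). Nfkb1, another NF-kB subunit gene, rose by 0.67 and Irf8, a factor of the myeloid lineage, fell by 0.62 in WT cells. Without WT C. albicans replicate 1 the count in KO cells was 4 higher and 1 lower. That fit called 663 of all 11283 genes higher and 824 lower. Between genotypes 1 of the 17 was higher and 11 lower in KO cells with C. albicans, with Nfkb1 at -0.74, Rel at -0.68 and Irf1 at -0.55, where 27.5% of all tested genes were lower. With PBS 0 were higher and 10 lower in KO cells, where 26.1% of all were lower, with Irf1 at -0.33, Nfya, a subunit of the CCAAT-binding factor, at -0.29 and Irf8 at -0.26. With median-ratio factors the count with PBS was 0 higher and 5 lower, where 1608 of all 11283 genes were lower.

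Most interferon-stimulated genes were lower in KO cells. Of 30 such genes 1 was higher in KO cells with C. albicans (Irf7, an interferon regulatory factor, at 0.24) and 22 were lower, including the chemokine gene Cxcl10 at -1.46, where 27.5% of all tested genes were lower. With PBS 0 were higher and 17 lower in KO cells, including Ifit2, an antiviral gene, at -0.72, where 26.1% of all tested genes were lower. With median-ratio factors these counts were 2 higher and 19 lower with C. albicans, and 2 higher and 6 lower with PBS. Of all 11283 genes 2158 were then higher and 2463 lower with C. albicans, and 1577 higher and 1608 lower with PBS. Without WT C. albicans replicate 1 the count with PBS was 0 higher and 27 lower. That fit called 865 of all 11283 genes higher and 3360 lower with PBS. In response to C. albicans 1 of the 30 rose and 0 fell in KO cells, which was Cxcl10 at 1.61. In WT cells 9 rose and 5 fell, with Cxcl10 at 2.49 and Irf7 at -0.51. Of all tested genes 3.94% rose and 3.14% fell in KO cells, and 16.1% rose and 28.3% fell in WT cells. Without WT C. albicans replicate 1, 3 of the 30 were higher and 2 lower in KO cells. In WT cells 21 were then higher and 4 lower. That fit called 663 of all 11283 genes higher and 824 lower in KO cells, and 1885 higher and 3536 lower in WT cells. Of 13 genes for interferon ligands, receptors and signalling 11 were tested, and 0 were higher and 8 lower in KO cells with C. albicans, including Jak2 at -0.87 and Jak1 at -0.30, both tyrosine kinases of the receptors. With PBS 0 were higher and 4 lower, or 1 and 2 with median-ratio factors. Ifng and Ifna4 did not pass the filter on low values. Ifnb1, which encodes interferon beta, passed it at low levels, averaging 0.584 ± 0.401 TPM in KO cells with C. albicans against 2.05 ± 0.636 TPM in WT cells with C. albicans (SD, n = 3 each), with at most 17 reads in a library.

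Class II presentation genes display peptides from outside the cell to CD4+ T cells. Of 10 tested, 8 were higher and 1 lower in KO cells with C. albicans than in WT cells with C. albicans, where 12.4% of all tested genes were higher and 27.5% lower. Their median was 0.39, beside 0.03 for the class I genes and -0.05 for all tested genes. H2-Ab1 and H2-Aa, the chains of the I-A molecule, were at 0.57 and 0.53, and Cd74, which encodes the invariant chain, was at 0.44. With PBS 1 was higher and 1 lower in KO cells, where 6.14% of all tested genes were higher and 26.1% lower. The response in KO cells minus that in WT cells was higher in 6 and lower in 0 of the 10. Of all tested genes 7.52% were higher and 6.33% lower in that difference. Whether these genes differ from the class I genes was not tested.

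**Figure D4:**
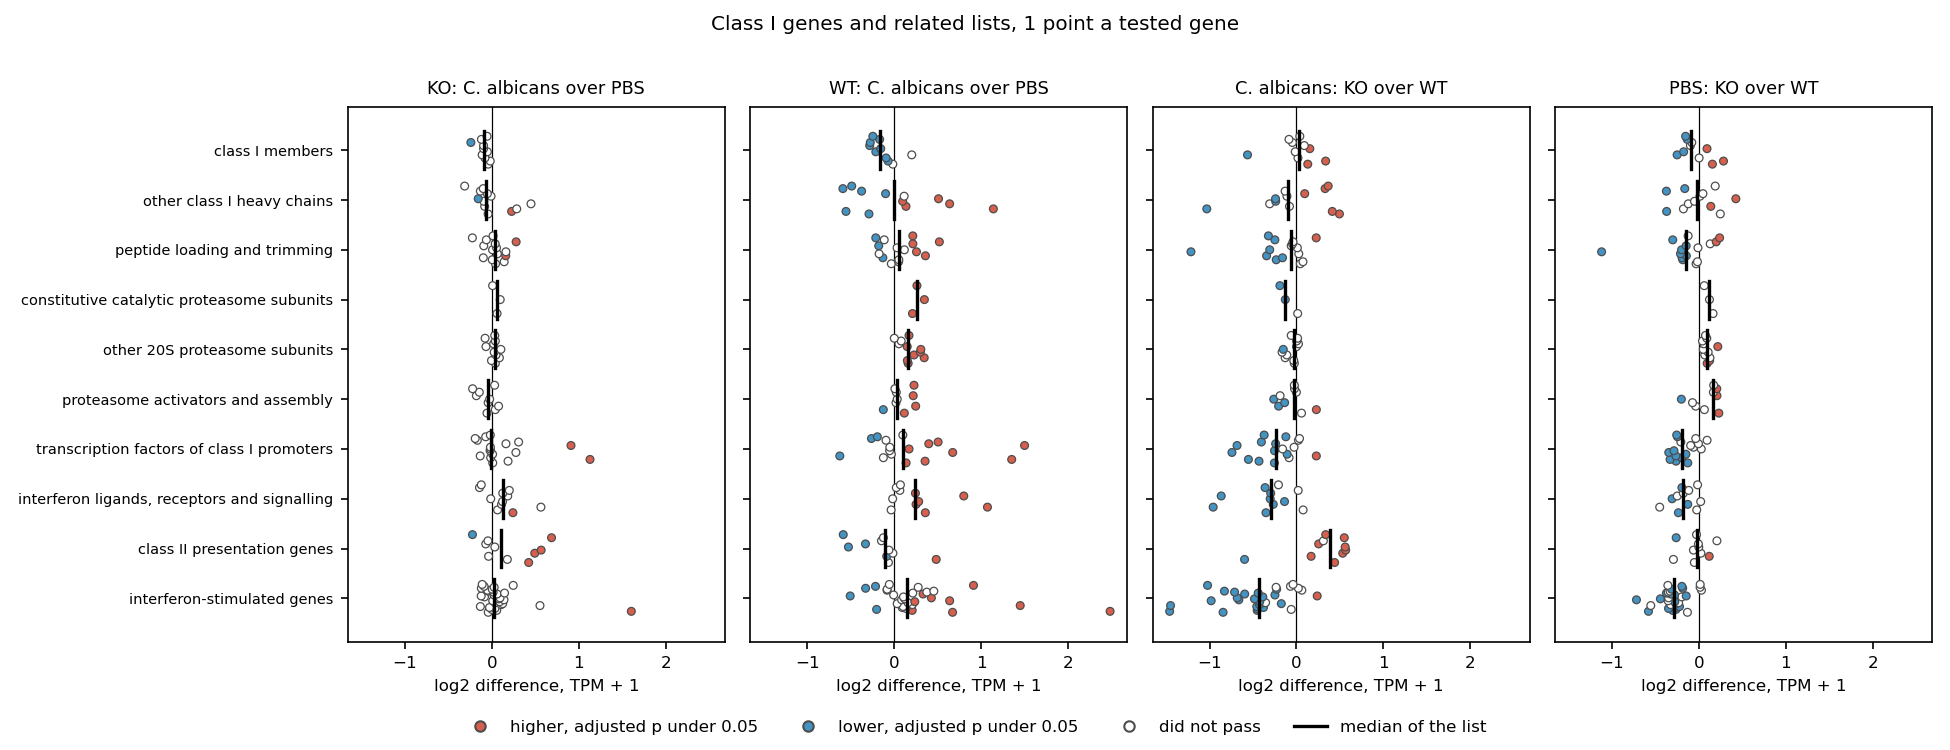
Log2 differences on the TPM + 1 scale (horizontal axes) for the 10 class I genes and related gene lists, 1 point a tested gene, with list medians as vertical bars, for C. albicans over PBS in KO and in WT cells and for KO over WT with C. albicans and with PBS. Filled points passed an adjusted p under 0.05. The class I genes lie between -0.56 and 0.34 in these panels, while interferon-stimulated genes lie lower in KO cells than in WT cells, 22 of 30 past the threshold with C. albicans.

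Genes whose levels ran closest to a class I gene over the 12 libraries were named by the root mean square difference of centred log2(TPM + 1), among 8889 genes with a mean of at least 5 TPM. For H2-D1 these were Rnasek at 0.05, Tecr at 0.06 and Serpinb6a at 0.06, where the median gene stood at 0.23. For Nlrc5 they were Abr at 0.06, Zcchc2 at 0.07 and Gbp3, an interferon-induced GTPase, at 0.07, where the median gene stood at 0.25. Tap2 had Oasl2, an interferon-stimulated gene, as its second nearest at 0.04, after Csnk1d at 0.04. Psmb8 had the ribosomal gene Rplp0 nearest, at 0.02, and Tap1 had Prr12, at 0.04. Class I genes were left out of the candidates.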

How the data were processed

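The 12 libraries were grouped by their genotype and treatment labels. The submitters' processing notes name CASAVA 1.8, cutadapt 2.6, STAR 2.7.5a, DESeq2 1.34.0 and the mm10 build. The sources used here do not give the read counter, its strand setting or the annotation. Per the file headers, the authors deposited TPM for 25230 genes. Beside it the authors deposited DESeq2 columns of a base mean (a normalised signal), a log2 fold change, its standard error, a Wald score and raw and adjusted p-values. These belong to C. albicans over PBS in WT cells, as the log2 ratios of those libraries lay a median of 0.00102 from the authors' column, taken over 10034 genes. Reads were recovered from TPM and base mean, of which 100% of 171648 nonzero values came within 0.01 of a whole number. They served for depth, relative gene lengths, the comparison of replicates, the check of the authors' column and the simulated data. No count test was run. Genes lacking a symbol, 28 in all, took 0.00132% of reads.

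limma 3.58.1 in R 4.3.3 was fitted to log2(TPM + 1), a scale that understates changes of low genes. The fit had 8 residual degrees of freedom, 1 mean per group, all 12 libraries and a variance trend. Two-sided p-values were adjusted by Benjamini-Hochberg over 11283 genes in each comparison. For ratios, genotype was permuted within each treatment (exact test) and p adjusted over 4 ratios. The fit was tested on simulated data, with 50 genes changed at each size. At 1.1-fold, 0 to 2 of the 50 were recovered in a comparison. At 1.25-fold 24 to 30 were recovered between pairs of groups, and 8 in the difference of responses. Changes of 1.1-fold and 1.25-fold were thus often missed there. A simulated comparison called 102 to 133 genes, while the real WT response called 1814 higher and 3192 lower. An adjusted p under 0.05 is easier to reach where more genes change, so these shares do not give the recovery in the real fits. Not passing still does not show that a level was unchanged. The members and lists were chosen with earlier results of these data known. Named are all 10 members, examples from the 4 genes with the smallest p per list and comparison, and the 3 nearest genes of a member, with the examples picked after their values were seen, as was Ifnb1. Alternatives were the scaling, by median-ratio or upper-quartile factors computed from the TPM of the tested genes and applied to it. Others were a pseudocount of 0.1, no low-value filter, no variance trend, only the libraries compared and a replicate block. The last were removal of a trend on gene length and GC content (known for 99.4% of tested genes), and leaving out each library. The effect of the length and GC trend on ratios, and every alternative for the other lists, were added after seeing the data.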

Additional observations from a re-analysis of the deposited data

Results flagged for a closer look

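Among the class I genes, Tapbp responded to C. albicans differently in the genotypes by the test of the difference, with a response in KO cells minus that in WT cells of 0.19 on the log2 scale. On the same test of the difference, the ratio of Psmb9 to Psmb6 stood at 0.44 and that of Psmb10 to Psmb7 at 0.42, both as exact permutation tests of genotype within treatment. The constitutive subunit genes in these ratios differed as well, Psmb6 at -0.25 and Psmb7 at -0.25. Of the other heavy chains, Fcgrt was at 0.78, Hfe at 0.49, H2-Q6 at -0.67 and H2-M2 at -0.85. Of the factors and interferon-stimulated genes named here, Rel was at -0.59, Irf7 at 0.38 and Cxcl10 at -0.88. What lies behind these differences was not tested. Markers of macrophages, summed without weights, were lower in KO cells with both treatments. Such a sum mostly follows its most abundant genes and does not show that each marker was lower. The part of these markers in the results was not tested.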

How the results depend on the processing

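Leading results that held under all 20 alternatives were H2-D1 in KO over WT cells with both treatments, Nlrc5 in KO over WT cells with C. albicans, Tap1 in the responses of both genotypes, and Tapbp and Psmb9 in the WT response. The count of class I genes moved with the scaling. With median-ratio factors 1 gene was higher (Nlrc5) and 3 lower in the WT response, where 2559 of all 11283 genes were higher and 2091 lower. Then 0 were lower in KO cells with PBS, 5 higher in KO cells with C. albicans, and 0 had a higher response in KO than in WT cells. Of all 11283 genes these were 1608, 2158 and 669. With upper-quartile factors the same 3 counts were 0, 6 and 2 class I genes, and 1853, 2468 and 972 of all 11283 genes. With a length and GC trend removed 1 was higher (Nlrc5) and 5 lower (B2m, Tap1, Tapbp, Psmb8 and Psmb9) in the WT response. Then 1 was higher in KO cells with PBS, 1 higher and 5 lower in KO cells with C. albicans, and 0 differed in response. Of 11212 genes 1499 were higher and 2803 lower in the WT response, and 348 were higher with PBS. With C. albicans 853 were higher and 2355 lower, and in the difference of responses 694 were higher and 580 lower. With no filter, or the variance trend off, 2 were lower in KO cells with PBS, where 2772 of 17155 and 2847 of 11283 genes were lower. With the trend off 0 had a higher response in KO cells, where 656 of all 11283 genes did. With the libraries compared alone 4 fell in the KO response. Of all 11283 genes 722 then fell, beside 354 with all 12 libraries in the fit. The pseudocount changed no class I call, and in KO over WT cells with PBS the median of all genes was -0.08 on the TPM scale and 0.00 with median-ratio factors. The cause of these changes was not tested.

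Leaving out 1 library at a time gave 0 to 1 genes higher and 6 to 7 lower in the WT response, and 1 to 3 lower in the KO response. It gave 1 to 3 higher and 1 to 4 lower in KO cells with PBS, and 2 to 3 higher with C. albicans. In the difference of responses 1 to 2 were higher and 0 to 1 lower. Of all 11283 genes 1545 to 1885 were higher and 2507 to 3536 lower in the WT response, and 98 to 824 lower in the KO response. In KO cells 511 to 865 were higher and 2236 to 3360 lower with PBS, and 1034 to 1749 higher with C. albicans. In the difference of responses 547 to 1472 were higher and 484 to 1059 lower. The difference of responses of Psmb10 to Psmb7 ranged from 0.35 to 0.49 and that of Psmb8 to Psmb5 from 0.16 to 0.28. That of Psmb9 to Psmb6 ranged from 0.40 to 0.50, and that of heavy chains to B2m from -0.018 to 0.10. Psmb9 to Psmb6 and Psmb10 to Psmb7 had passed with all libraries. Between them they lost an adjusted p under 0.05 (exact permutation test) in 7 instances when a library was left out. With the length and GC trend removed, Psmb10 to Psmb7 was at 0.22 and heavy chains to B2m at -0.14.

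Signs turned in values close to 0 and in some that had passed. H2-D1 in the WT response and Psmb8 in KO over WT cells with PBS had passed on the TPM scale. In KO over WT cells with C. albicans H2-K1 passed above 0 with median-ratio and upper-quartile factors. It passed below 0 with the length and GC trend removed. With median-ratio factors H2-D1 was at 0.025 and B2m at 0.0018 in the KO response, and at 0.0098 and 0.064 in the WT response. In KO over WT cells Tap1 was then at 0.015 with PBS and 0.013 with C. albicans, and Psmb10 at 0.046 with C. albicans. The differences of responses of H2-K1 and Tap1 were -0.023 and -0.0026. With upper-quartile factors H2-D1 was at 0.0034 in the KO response, and Tap1 and Psmb10 were at 0.033 and 0.067 in KO over WT cells with C. albicans. With the length and GC trend removed H2-D1 was at 0.0067 in the KO and 0.021 in the WT response, and Psmb7 at -0.054 in the KO response. In KO over WT cells H2-K1 was then at -0.038 and Psmb8 at -0.022 with PBS, and H2-K1 was at -0.088, Tapbp at -0.067 and Psmb9 at -0.076 with C. albicans. The differences of responses were -0.044 for H2-K1, -0.038 for Tap1, -0.012 for H2-D1, -0.035 for Tap2 and 0.11 for B2m. With 1 library left out, B2m ranged from -0.070 to 0.019 in the WT response and Psmb7 from -0.042 to 0.048 in the KO response. In KO over WT cells H2-K1 ranged from -0.011 to 0.022 with PBS and from -0.0015 to 0.046 with C. albicans, and Psmb10 from -0.072 to 0.029 with C. albicans. The differences of responses ranged from -0.0050 to 0.043 for H2-K1, from -0.060 to 0.030 for B2m and from -0.00011 to 0.055 for Tap1.

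With a replicate block the class I counts stayed at 8 lower in the WT response, 1 lower in the KO response, 3 higher and 4 lower with PBS, 3 higher and 1 lower with C. albicans and 1 higher in the difference of responses, and no class I call changed. Replicate numbers are shared by the labels, but the 18 pairs of same-numbered libraries had correlations of -0.0883 to 0.0867, so they were not taken as pairs. Nlrc5, with 459 to 953 reads a library, is the class I gene most limited by depth.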
